A study of Homo sapiens with 9 samples.

Results

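The receptors of the IL-6 cytokine family, the kinase and transcription factor beneath them, and the feedback and response genes of STAT3 were followed in the human ER+ breast cancer line T47D. The 10 genes, IL6ST, OSMR, IL6R, LIFR, JAK1, STAT3, SOCS3, BCL3, CEBPD and PIM1, were taken by symbol from a table of 27635 symbols. All 10 passed the filter on low values, which left 16696 genes to test. Bulk RNA of 9 libraries was compared, with 3 from monoculture (MC), 3 from contact culture with HS5 cells (CC, labelled T47D_CC_HS5) and 3 from culture in medium conditioned by HS5 cells (CMed, labelled CM_HS5). HS5 is a human bone marrow stromal line that serves as a model of mesenchymal stem cells (MSCs). The question put to these cultures was what MSCs change in ER+ cancer cells by touch and what they change through soluble molecules. The labels give 24 hours in full medium for all groups, then low-glucose, phenol red-free medium with 1% FBS and 10 nM estradiol for 48 hours, and 10% cancer cells to 90% MSCs in contact culture. EpCAM beads were used to recover the cancer cells from contact culture, so the bead step and contact cannot be told apart. How the conditioned medium was made is not given in the sources used here. Each culture type rests on a single cancer line and a single stromal line.

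Cytokines of the IL-6 family signal through gp130, the shared chain encoded by IL6ST, joined by a chain that sets which cytokine is bound (the IL-6 receptor IL6R, the oncostatin M receptor OSMR or the LIF receptor LIFR). Kinases such as JAK1 sit on the inner tails of the receptors and phosphorylate STAT3, which then enters the nucleus and binds DNA. STAT3 induces its own inhibitor SOCS3, which docks on gp130 and JAK kinases and shuts the signal down. Phosphorylation of STAT3 is not seen by RNA sequencing.

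The values are TPM, a transcript abundance scaled for transcript length and to a common total per library, so levels can be set side by side between genes. Fold changes were taken between group means of log2(TPM + 1), which understates the change of genes near 0, and adjusted p values are those of limma with the Benjamini-Hochberg method over all 16696 genes. A gene was called changed at an adjusted p under 0.05. The labels name about 25000000 to 40000000 reads per sample, but without read counts in the table the error from counting cannot be given. Whether replicates came from separate cultures is not in the labels, so that p values cover only the spread between these samples. Monoculture replicate 2 stood apart from the other monocultures, with Pearson's r across genes of 0.942 and 0.939 against 0.965 between replicates 1 and 3. Fold changes in the median gene were -0.08 in contact culture and -0.10 in conditioned medium on the log2 scale, and 0.01 in both after relative log expression scaling.

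The libraries carried transcripts of luminal epithelium. All 18 luminal markers passed the filter, and their summed level was 2419 to 3520 TPM. Single markers moved in both directions. Limma called KRT7, TFF1 and MUC1 higher and GATA3 and PGR lower with contact than in monoculture. The PGR mean fell from 63.3 to 5.33 TPM (adjusted p = 1.57e-05 from limma). PGR was also called lower with contact than in conditioned medium, and TFF1 higher in conditioned medium than in monoculture. TFF1 reached 0.5 TPM in 1 monoculture library, so its calls are a description. EPCAM, which encodes the protein bound by the beads, ranged from 168 to 206 TPM in monoculture, from 137 to 160 TPM in contact culture and from 127 to 145 TPM in conditioned medium. Of 31 stromal markers, 14 were tested, and contact culture exceeded monoculture in 5 (VIM, FN1, TWIST2, PRRX1 and CAV1), beside 2.15% of all genes. TWIST2, PRRX1 and CAV1 reached the filter of 0.5 TPM in 0 libraries outside contact culture. They could be tested only because they were high there, so for them the count is a description. The call of FN1 was lost with the replicate number as a block (adjusted p = 0.0508) and from the 2 groups alone. Their summed level over the whole list ran from 23.8 to 27.8 TPM in monoculture, from 54.3 to 61.6 TPM in contact culture and from 23.7 to 27.5 TPM in conditioned medium. Between 10 and 15 of the 31 were at 0 in a monoculture library, 3 to 8 in a contact culture library and 14 to 16 in a conditioned medium library. VIM, the stromal intermediate filament vimentin, reached 6.28 to 11.7 TPM in contact culture and stayed at 1.25 TPM or less elsewhere. The fibrillar collagen genes COL1A2 and COL3A1 reached 0.799 TPM and 0.212 TPM at most in any library. COL1A1, another of them, was at 2.73 to 6.29 TPM in monoculture, at 2.79 to 4.26 TPM with contact and at 2.55 to 4.60 TPM in conditioned medium, and the groups overlapped. In bulk RNA, fewer cells of a type and less RNA per cell cannot be told apart.

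Among the receptors, OSMR was the gene that rose with MSCs, by about 4-fold in contact culture, while the shared chain IL6ST was far more abundant in every library and passed the threshold in no comparison. OSMR (ENSG00000145623.12, chromosome 5 of GRCh38, 38845858 to 38945596, plus strand) encodes a chain that joins gp130 in binding oncostatin M. Its level was 3.69, 1.69 and 3.0 TPM in monoculture replicates 1 to 3, 14.7, 8.11 and 13.1 TPM in contact culture, and 11.05, 7.0 and 13.6 TPM in conditioned medium. Every library with MSCs or their medium was above every monoculture, and replicate 2 was the lowest of its group in all 3 conditions. The mean of 11.96 ± 3.44 TPM in contact culture (SD, n = 3) was 4.28 times that of monoculture (2.79 ± 1.02, n = 3), with a log2 fold change of 1.77 (95% interval 1.06 to 2.48, adjusted p = 0.0158 from limma). In conditioned medium the mean of 10.5 ± 3.31 TPM (n = 3) was 3.77 times that of monoculture, with a log2 fold change of 1.60 (0.89 to 2.31, adjusted p = 0.0464). The rise in contact culture was no longer past the threshold without contact culture replicate 1 or 3 (adjusted p up to 0.0795). With each library left out in turn, the rise in conditioned medium passed 2 of 9 times, without monoculture replicate 2 or contact culture replicate 2 (adjusted p 0.0428 to 0.178 over the 9). Contact culture and conditioned medium did not differ in OSMR past the threshold, with a log2 difference of 0.17 that the data place between -0.54 and 0.88.

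IL6ST (ENSG00000134352.19, chromosome 5, 55935095 to 55994993, minus strand) was the most abundant of the 10 genes. It was at 248, 161 and 208 TPM in monoculture, at 165, 191 and 164 TPM in contact culture, and 312, 321 and 277 TPM in conditioned medium. All conditioned medium libraries were above all others, whereas contact culture and monoculture overlapped. The mean of 303 ± 23.5 TPM in conditioned medium (SD, n = 3) was 1.75 times that of contact culture (174 ± 15.1, n = 3) and 1.47 times that of monoculture (206 ± 43.9, n = 3). Neither difference was past the threshold over all genes in limma. The log2 fold change was -0.80 for contact culture against conditioned medium (-1.19 to -0.41, unadjusted p = 0.00119, adjusted p = 0.113) and 0.58 for conditioned medium against monoculture (0.18 to 0.97, adjusted p = 0.158). Without monoculture replicate 2, the difference between contact culture and conditioned medium had an adjusted p of 0.0269.

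IL6R and LIFR were low in every condition. IL6R (ENSG00000160712.12, chromosome 1, 154405193 to 154469450, plus strand), the chain that binds IL-6, was at 2.14, 0.700 and 1.12 TPM in monoculture, at 0.829, 0.640 and 1.42 TPM in contact culture, and 1.42, 0.796 and 1.15 TPM in conditioned medium. LIFR (ENSG00000113594.9, chromosome 5, 38474963 to 38608354, minus strand), the chain that binds LIF, was at 0.562, 0.701 and 0.858 TPM, then at 0.240, 1.2 and 0.180 TPM, and then at 0.373, 1.03 and 0.617 TPM in the same order. For both genes all 3 conditions overlapped. The log2 fold change against monoculture was -0.21 for IL6R (-0.86 to 0.44, adjusted p = 0.742) and -0.20 for LIFR (-0.85 to 0.44, adjusted p = 0.753) in contact culture. In conditioned medium it was -0.09 for IL6R (-0.74 to 0.56, adjusted p = 0.915) and -0.04 for LIFR (-0.69 to 0.60, adjusted p = 0.960).

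The order of the receptor chains was the same at the top in all 9 libraries, with IL6ST first and OSMR next. IL6R and LIFR followed and exchanged places, LIFR being the higher in replicate 2 of each condition. IL6ST was 67.3 to 95.3 times as abundant as OSMR in monoculture, 11.2 to 23.6 times in contact culture and 20.4 to 45.9 times in conditioned medium. These ranges overlap between contact culture and conditioned medium, and neither overlaps that of monoculture.

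**Figure D1:**
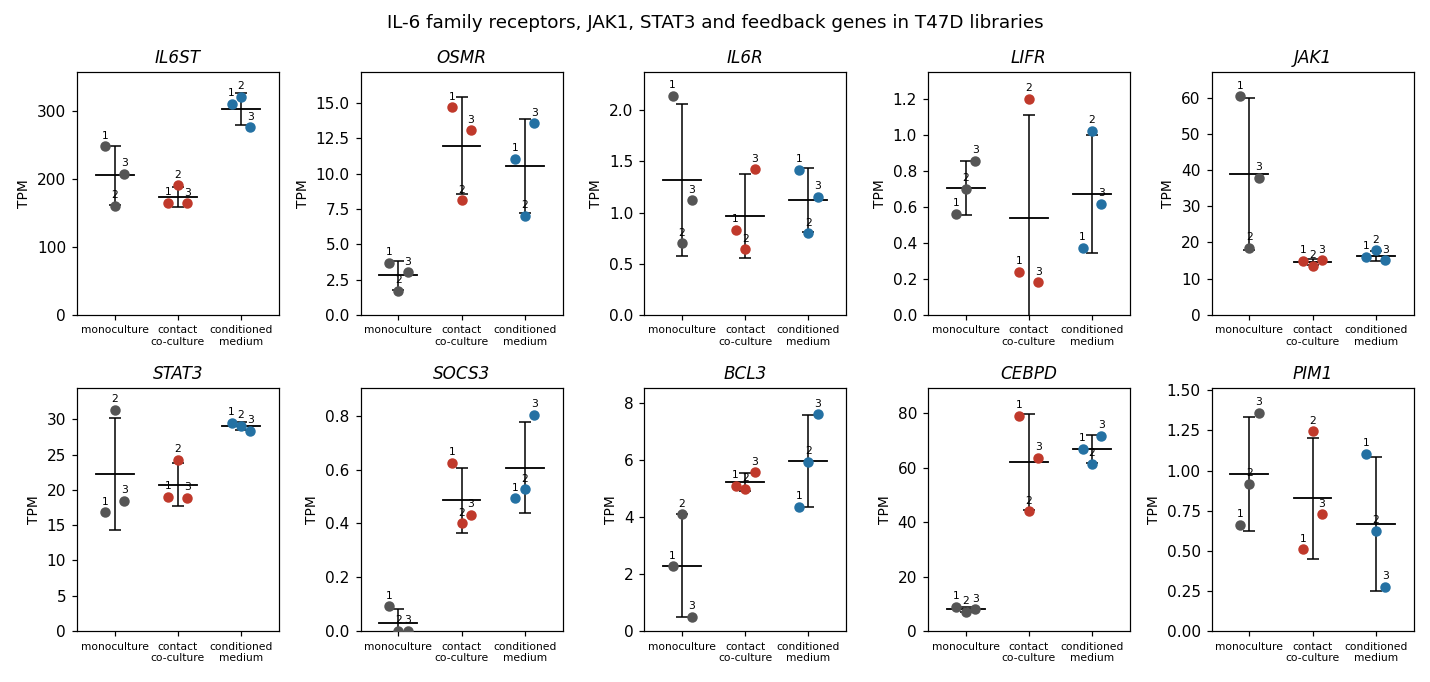
TPM of the 10 genes in each library, 1 panel per gene with its own axis from 0; points are libraries numbered by replicate, horizontal lines are means and bars are 1 SD (n = 3, cut at 0 where a bar would pass below it). CEBPD and OSMR lie higher in all 6 libraries with MSCs or their medium than in the 3 monocultures, and JAK1 spreads from 18.6 to 60.4 TPM in monoculture.

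Below the receptors, the mean of JAK1 was lower with MSCs and that of STAT3 moved little, and neither gene passed the threshold. JAK1 (ENSG00000162434.11, chromosome 1, 64833229 to 64966504, minus strand) was at 60.4, 18.6 and 37.8 TPM in monoculture, at 14.9, 13.5 and 15.02 TPM in contact culture, and 16.02, 17.8 and 15.04 TPM in conditioned medium. All 6 libraries with MSCs or their medium were below all monocultures, but monoculture replicate 2 was close to them. Its mean in monoculture (38.9 ± 20.9 TPM, SD, n = 3) was 2.69 times that of contact culture (14.5 ± 0.847, n = 3) and 2.39 times that of conditioned medium (16.3 ± 1.40, n = 3). The log2 fold change was -1.22 in contact culture (-2.00 to -0.44, adjusted p = 0.0821) and -1.06 in conditioned medium (-1.84 to -0.28, adjusted p = 0.186). Without monoculture replicate 2 these were -1.66 (adjusted p = 0.00316) and -1.50 (adjusted p = 0.00780), both past the threshold. Without monoculture replicate 1 they were -0.83 (adjusted p = 0.182) and -0.68 (adjusted p = 0.370).

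STAT3 (ENSG00000168610.14, chromosome 17, 42313324 to 42388568, minus strand) was at 16.8, 31.3 and 18.5 TPM in monoculture, at 19.1, 24.2 and 18.8 TPM in contact culture, and 29.5, 29.1 and 28.4 TPM in conditioned medium. The conditioned medium libraries lay close together and above those of contact culture, and monoculture spanned both because replicate 2 was the highest of all 9. The log2 fold change was -0.05 in contact culture (-0.57 to 0.47, adjusted p = 0.932), with a sign that turned under other scalings, and 0.42 in conditioned medium (-0.10 to 0.94, adjusted p = 0.417). Contact culture against conditioned medium gave -0.48 (-0.996 to 0.05, adjusted p = 0.454). Without monoculture replicate 2 the difference of conditioned medium from monoculture was 0.69 (adjusted p = 0.0396).

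Of the STAT3 response genes, CEBPD rose about 8-fold in both cultures, SOCS3 and BCL3 had higher values without passing the threshold, and PIM1 overlapped in all conditions. CEBPD (ENSG00000221869.4, chromosome 8, 47736909 to 47739086, minus strand) encodes C/EBPδ, a transcription factor of the acute phase response whose gene is a known target of STAT3. It was at 8.89, 7.01 and 7.96 TPM in monoculture, at 79.1, 44.0 and 63.7 TPM in contact culture, and 66.9, 61.5 and 71.9 TPM in conditioned medium. The lowest library with MSCs or their medium was far above the highest monoculture. The mean was 62.2 ± 17.6 TPM in contact culture (SD, n = 3) and 66.8 ± 5.17 TPM in conditioned medium (n = 3), or 7.83 and 8.40 times the 7.95 ± 0.938 TPM of monoculture (n = 3). The log2 fold changes were 2.79 (2.30 to 3.27, adjusted p = 0.000206) and 2.92 (2.44 to 3.41, adjusted p = 0.000294). Both calls held with each of the 9 libraries left out, with adjusted p up to 0.00255 and 0.00351. Contact culture and conditioned medium differed by -0.14 (-0.62 to 0.35, adjusted p = 0.859).

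SOCS3 (ENSG00000184557.4, chromosome 17, 78356778 to 78360077, minus strand), the feedback inhibitor of gp130, was near the bottom of the scale. It was at 0.0913 TPM in monoculture replicate 1 and listed at 0 in replicates 2 and 3. It was at 0.625, 0.401 and 0.433 TPM in contact culture and at 0.493, 0.527 and 0.803 TPM in conditioned medium. All 6 libraries with MSCs or their medium were above all monocultures, yet all stayed under 1 TPM. SOCS3 passed the filter of 0.5 TPM only through contact culture replicate 1 and conditioned medium replicates 2 and 3. A tested SOCS3 thus had to be higher in some libraries outside monoculture. The log2 difference was 0.53 in contact culture (0.08 to 0.97, adjusted p = 0.170) and 0.64 in conditioned medium (0.20 to 1.08, adjusted p = 0.167). Contact culture against conditioned medium gave -0.11 (-0.55 to 0.33, adjusted p = 0.876).

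BCL3 (ENSG00000069399.14, chromosome 19, 44747705 to 44760044, plus strand) encodes a partner of NF-κB p50 and p52, and is a reported target of STAT3. It was at 2.28, 4.11 and 0.494 TPM in monoculture, at 5.10, 4.998 and 5.58 TPM in contact culture, and 4.38, 5.95 and 7.62 TPM in conditioned medium. The groups did not overlap with monoculture, though monoculture replicate 2 was close to the lowest conditioned medium library. The means of 5.23 ± 0.312 and 5.98 ± 1.62 TPM (SD, n = 3 each) were 2.28 and 2.61 times that of monoculture (2.29 ± 1.81, n = 3). The log2 fold changes of 1.09 (0.19 to 1.99, adjusted p = 0.164) and 1.23 (0.33 to 2.13, adjusted p = 0.186) missed the threshold, and without monoculture replicate 2 they were 1.49 and 1.63 (adjusted p = 0.0331 each). Without monoculture replicate 3, the lowest, they were 0.60 and 0.74 (adjusted p = 0.311 and 0.326). PIM1 (ENSG00000137193.13, chromosome 6, 37170203 to 37175426, plus strand), a survival kinase induced by STAT factors, was at 0.661, 0.916 and 1.36 TPM in monoculture, at 0.508, 1.24 and 0.727 TPM in contact culture, and 1.10, 0.623 and 0.277 TPM in conditioned medium. Its log2 fold changes were -0.12 (-0.73 to 0.49, adjusted p = 0.857) and -0.26 (-0.88 to 0.35, adjusted p = 0.691).

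In contact culture against monoculture, 2 of the 10 genes (CEBPD and OSMR) were called higher and 0 lower, where 4.99% of all genes tested were called (2.15% higher and 2.84% lower). In conditioned medium against monoculture the called genes were again CEBPD and OSMR, with 0 lower, beside 1.38% of all genes (0.707% higher and 0.677% lower). These 2 comparisons share the monocultures. Between contact culture and conditioned medium limma called 0 of the 10 genes, beside 0.371% of all genes (0.210% higher and 0.162% lower). At an unadjusted p under 0.05 in limma the counts were 5, 6 and 1 (IL6ST) in these 3 comparisons, beside 3386, 2622 and 2045 of all 16696 genes. The median log2 fold change of the 10 genes was -0.09, 0.50 and -0.14 in these 3 comparisons, beside -0.08, -0.10 and 0.00 over all genes tested. In contact culture, 4 of the 10 genes were above monoculture without overlap (9.0% of all genes) and 1 below (15.3%). In conditioned medium these were 5 (6.67%) and 1 (14.2%). Both counts of higher genes include SOCS3 and BCL3, and so do the first 2 counts at an unadjusted p under 0.05. SOCS3 passed the filter only through libraries outside monoculture, where it was high. BCL3 reached the filter of 0.5 TPM in 2 monoculture libraries, so its pass also needed the other groups. The place of both genes in these counts is therefore a description. Contact culture was below conditioned medium without overlap in 3 (STAT3, IL6ST and, by a margin of hundredths of a TPM, JAK1), beside 9.93% of all genes.

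**Figure D2:**
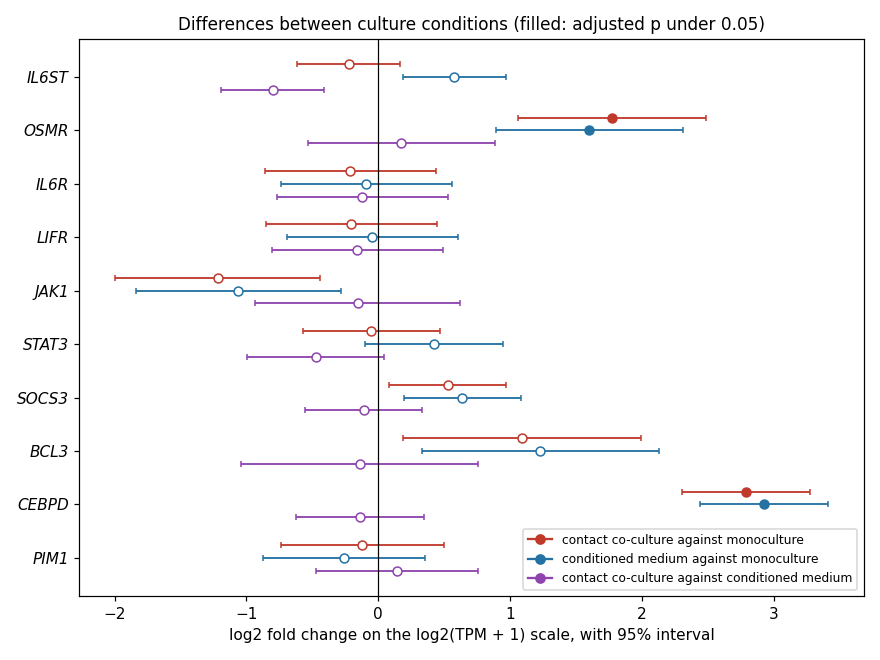
Log2 fold change of the 10 genes on the log2(TPM + 1) scale in the 3 comparisons, with 95% intervals from limma; filled points have an adjusted p under 0.05. CEBPD and OSMR are filled in both comparisons with monoculture, and no point is filled between contact culture and conditioned medium.

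The calls turned on monoculture replicate 2 more than on any other library. Without it, 4 of the 10 genes were called in contact culture against monoculture and 5 in conditioned medium against monoculture. The genes added were BCL3 (higher) and JAK1 (lower) in both comparisons, and STAT3 (higher) in conditioned medium. In this library JAK1 and IL6ST were the lowest of the monocultures, and STAT3 and BCL3 the highest. The labels hold nothing that sets it apart.

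**Figure D3:**
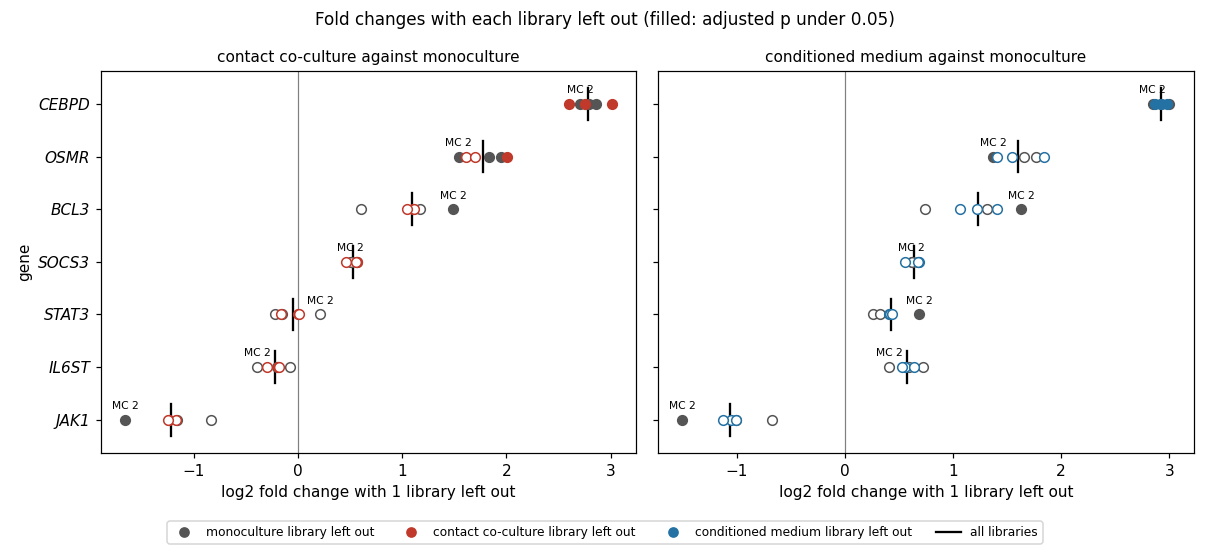
Log2 fold changes of 7 of the 10 genes against monoculture, with 1 library left out at a time; point colour gives the group of the library left out, filled points have an adjusted p under 0.05, and vertical lines are the values from all libraries. CEBPD stays filled throughout, whereas BCL3 and JAK1 are filled only without monoculture replicate 2 (MC 2).

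The 7 ligand genes described here were scarce in these libraries. IL6 was at 0.952 TPM in contact culture replicate 1 and listed at 0 in the other 8 libraries. LIF reached 0.307 TPM and IL11 0.727 TPM, each in monoculture replicate 1, CNTF was listed above 0 in conditioned medium replicate 1 alone (0.368 TPM), and IL27 in conditioned medium replicate 2 alone (0.452 TPM). OSM, EBI3 and IL31 were not analysed here. CTF1 (0.163 to 1.62 TPM) and CLCF1 (0.248 to 2.08 TPM), which encode further ligands of the family, passed the filter and were low in all conditions. Neither was called by limma in any comparison, and 0 of their unadjusted p values were under 0.05.

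Among the other receptor chains, CNTFR and IL31RA were at or near 0 (at most 0.132 and 0.136 TPM), and IL11RA was at 0.130 to 1.86 TPM. IL27RA, which pairs with gp130 to bind IL-27, was at 2.09, 4.87 and 3.72 TPM in monoculture, at 0.902, 1.55 and 1.49 TPM in contact culture, and 3.92, 3.59 and 3.25 TPM in conditioned medium. Its contact culture libraries were below all others, with log2 fold changes of -0.94 against monoculture (adjusted p = 0.0806) and -0.998 against conditioned medium (adjusted p = 0.172), which missed the threshold. The sheddases that release IL6R from the cell surface, ADAM10 (8.38 to 19.4 TPM) and ADAM17 (2.05 to 3.76 TPM), were expressed in every library and not called.

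Of 8 other JAK and STAT genes tested, 1 (STAT5A) was called, in contact culture against monoculture alone, beside 4.99% of all genes. STAT5A reached the filter of 0.5 TPM in 1 monoculture library. It was thus tested through the groups where it was high, and its call is a description. STAT5A, a STAT factor of prolactin signaling, was at 0.675, 0.357 and 0.265 TPM in monoculture, at 2.32, 1.90 and 2.72 TPM in contact culture, and 1.58, 2.11 and 1.33 TPM in conditioned medium. Both cultures lay above monoculture without overlap. It rose in contact culture (log2 fold change 1.21, adjusted p = 0.0194) and in conditioned medium it was at 0.90 (adjusted p = 0.103). The call in contact culture was lost without monoculture replicate 3 or contact culture replicate 1 or 3 (adjusted p up to 0.10), with the replicate number as a block (adjusted p = 0.0534) and in a fit to the 2 groups alone. Of 13 other inhibitors tested (SOCS, CISH, PIAS and phosphatase genes) and 6 genes of SHP2 and its adaptors, 0 were called by limma in any comparison. At an unadjusted p under 0.05 the inhibitors counted 4, 2 and 4 in contact culture against monoculture, conditioned medium against monoculture and contact culture against conditioned medium, and SHP2 and its adaptors 1, 0 and 1. Over all 16696 genes these counts were 3386, 2622 and 2045.

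Some further STAT3 targets rose beside CEBPD, and most were not called. Of 13 tested, contact culture exceeded monoculture in 4 (CEBPB, ICAM1, VEGFA and IRF1), beside 2.15% of all genes, and conditioned medium in 2 (CEBPB and ICAM1), beside 0.707%. By limma 0 were lower in either and 0 were called between contact culture and conditioned medium. At an unadjusted p under 0.05 the 3 comparisons counted 4, 7 and 3, beside 3386, 2622 and 2045 of all 16696 genes. In conditioned medium 4 of the 13 lay above monoculture without overlap (6.67% of all genes) and 3 below (14.2%). All these counts of higher genes include ICAM1, which passed the filter through the groups where it was high. Its place in them is therefore a description. The 3 below were CCND1, BCL2L1 and HIF1A, singled out after their values were seen. CCND1, the gene of cyclin D1, was at 28.6, 20.4 and 32.1 TPM in monoculture and at 15.2, 13.5 and 15.1 TPM in conditioned medium, with a log2 fold change of -0.83 that missed the threshold (adjusted p = 0.0897) and passed it without monoculture replicate 2 (adjusted p = 0.0134). BIRC5, also singled out after its values were seen, was at 163, 67.4 and 163 TPM in monoculture and at 64.4, 69.6 and 59.8 TPM in conditioned medium. These 2 groups overlapped. Its log2 fold change was -0.90 (adjusted p = 0.198 from limma), and without monoculture replicate 2 the adjusted p was 0.00119. The median log2 fold change of the 13 genes was 0.14 in contact culture and -0.17 in conditioned medium, beside -0.08 and -0.10 over all genes tested. Many of these genes are also targets of NF-κB or of other factors.

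CEBPB encodes C/EBPβ, the partner of C/EBPδ. It was at 9.22, 10.3 and 9.65 TPM in monoculture, at 84.4, 37.6 and 54.3 TPM in contact culture, and 39.0, 39.2 and 47.2 TPM in conditioned medium. All 6 libraries with MSCs or their medium were above monoculture, and the log2 fold changes were 2.40 (adjusted p = 0.00135) and 1.99 (adjusted p = 0.00777). ICAM1 encodes a leukocyte adhesion molecule. It was at 0.516, 0.434 and 0.109 TPM in monoculture, at 4.56, 7.98 and 7.22 TPM in contact culture, and 3.91, 4.82 and 4.54 TPM in conditioned medium. It reached the filter of 0.5 TPM in 1 monoculture library, and so was tested through the groups where it was high. Its log2 fold changes were 2.47 (adjusted p = 0.000762) and 2.01 (adjusted p = 0.00519). Both genes were called in both comparisons with each of the 9 libraries left out.

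VEGFA, the angiogenic growth factor, was at 6.82, 5.54 and 6.58 TPM in monoculture, at 17.1, 23.3 and 21 TPM in contact culture, and 12.4, 11.2 and 10.7 TPM in conditioned medium. The 3 groups did not overlap at all. The log2 fold change was 1.55 in contact culture (adjusted p = 0.00155), 0.77 in conditioned medium (adjusted p = 0.0765) and 0.78 between them (adjusted p = 0.123). IRF1, a transcription factor of interferon responses, was at 3.61, 1.88 and 10.4 TPM in monoculture, at 16.5, 23.4 and 18.5 TPM in contact culture, and 23.4, 28.5 and 16.4 TPM in conditioned medium. Its log2 fold change was 1.93 in contact culture (adjusted p = 0.0399), a call kept 2 of 9 times with a library left out, namely monoculture replicate 2 or 3 (adjusted p up to 0.127 otherwise). That call was also lost with the replicate block (adjusted p = 0.0858), with no filter and from the 2 groups alone. In conditioned medium IRF1 was at 2.13 (adjusted p = 0.0585).

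STAT factors bind the palindrome TTCNNNGAA, which reads the same on both strands. It was searched in RefSeq promoter windows (GRCh38.p14, 250 bases before to 50 after each start site), where 7.66% of 35116 windows hold it and 1.15% hold the narrower form TTCCNGGAA. Counted by gene, 9.38% of 27305 genes hold it. Windows were found for 9 of the 10 genes, 14 windows in all, and LIFR alone held a match. CEBPD had no window and was not searched. Of the other STAT3 targets, 9 of 14 had windows, and ICAM1 and IRF1 held a match. Among the other inhibitors 11 of 14 had windows, and CISH held matches, some of the narrower form. Among the acute phase genes 8 of 15 had windows, and FGA and HAMP held a match. CISH and HAMP were tested and not called, and FGA was not tested. The remaining lists held 0 matches. Those of ICAM1, IRF1 and LIFR are shown with 10 bases on each side and the palindrome in capitals, 5′ to 3′ on the strand of the gene. ICAM1 and IRF1 were called in contact culture and LIFR was not.
ICAM1, chr19:10271035-10271063, plus strand, 75 bases before the start site: ggcgcgaggtTTCCGGGAAagcagcaccg
IRF1, chr5:132490879-132490907, minus strand, 124 bases before: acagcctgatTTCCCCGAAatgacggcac
LIFR, chr5:38595552-38595580, minus strand, 165 bases before: ccattactagTTCCTTGAAccacaatcca
LIFR, chr5:38557631-38557659, minus strand, 182 bases before another start site: gctttggagtTTCATCGAAaggtctttaa
The match of ICAM1 is of the narrower form. The window of OSMR holds 0 matches. Its first 96 bases (chr5:38845762-38845857, plus strand) are shown because OSMR was the receptor gene that rose. They end just before the GENCODE start of the gene (38845858), which is not the RefSeq start site of the window.
OSMR: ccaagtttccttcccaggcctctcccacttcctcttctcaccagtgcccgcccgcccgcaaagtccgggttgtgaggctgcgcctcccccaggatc
A match is a description of the letters and not a bound site, and a window without these letters says nothing of STAT3 at that gene.

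Most of the acute phase genes tested, which IL-6 induces in liver through STAT3 and C/EBP factors, rose in both cultures. Of 15 listed, 10 were tested. Against monoculture 7 were called higher in contact culture (2.15% of all genes) and 7 in conditioned medium (0.707%), with 0 lower. Between contact culture and conditioned medium 0 were called (2 at an unadjusted p under 0.05 in limma, beside 2045 of all 16696 genes). SERPINA3, ORM2 and HAMP, named after their values were seen, were not called. CP alone would have passed the filter on its monoculture values, so for genes that passed through the libraries where they were high the count is a description. LCN2, the iron-siderophore carrier lipocalin 2, was at 5.40, 0.328 and 10.1 TPM in monoculture, at 512, 397 and 411 TPM in contact culture, and 96.8, 85.6 and 128 TPM in conditioned medium. FGB, the fibrinogen beta chain, was at 0.521 TPM and then listed at 0 in both other monocultures, at 96.5, 101 and 97.5 TPM in contact culture, and at 45.6, 40.4 and 47.2 TPM in conditioned medium. For both genes the 3 groups did not overlap. The log2 fold changes against monoculture were 6.59 and 4.50 for LCN2 (adjusted p = 0.000700 and 0.0109) and 6.43 and 5.30 for FGB (adjusted p = 8.26e-07 and 2.49e-06). The call of LCN2 in conditioned medium was lost without conditioned medium replicate 1 or 3 (adjusted p up to 0.0539). Contact culture against conditioned medium gave 2.09 for LCN2 (adjusted p = 0.222) and 1.13 for FGB (adjusted p = 0.0527). FGB passed the threshold in this comparison without monoculture replicate 1 or 2 (adjusted p down to 0.0254) and under 5 of 11 other settings, and LCN2 without monoculture replicate 2 (adjusted p = 0.00854) and under 2 of 11. CP, the copper oxidase ceruloplasmin, rose in both (log2 fold changes 2.34 and 2.51, adjusted p = 0.00135 and 0.00172), as did SAA2, a serum amyloid A gene (3.57 and 3.40, adjusted p = 0.000676 and 0.00172). FGG, the fibrinogen gamma chain, and LBP, which binds lipopolysaccharide, were listed at 0 in all monocultures. FGG ranged from 5.88 to 10.3 TPM in contact culture and 2.43 to 7.12 TPM in conditioned medium (adjusted p = 0.00127 and 0.00798), and LBP at 3.0 to 4.76 TPM and 3.25 to 5.77 TPM (adjusted p = 0.00119 and 0.00172). Reads of SAA2 and its near copy SAA1 may be split between them, and how the authors assigned such reads is not given in the sources used here.

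**Figure D4:**
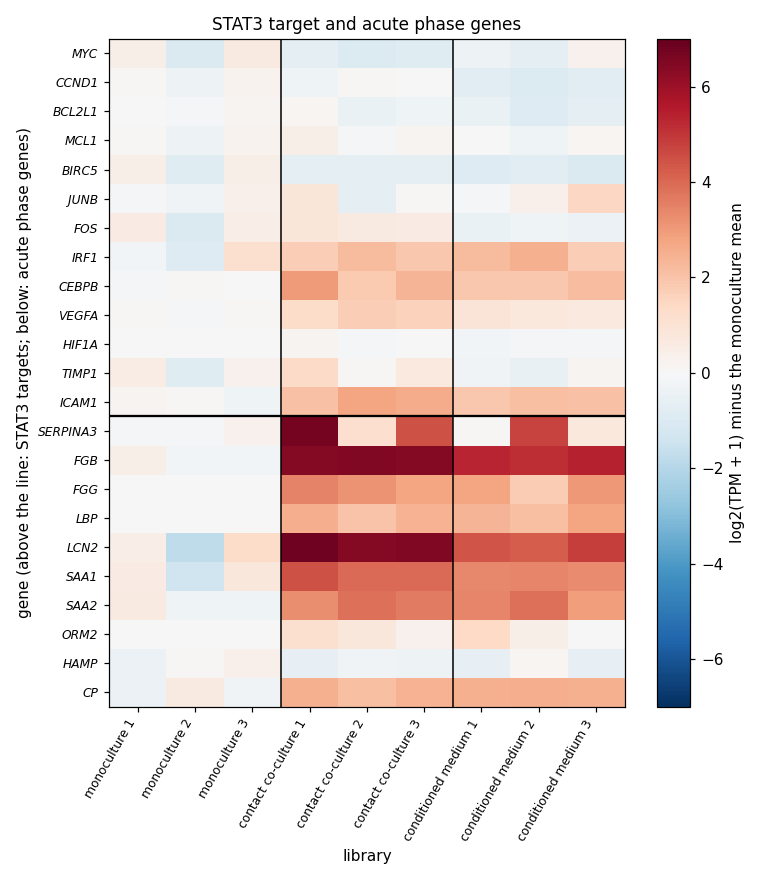
Log2(TPM + 1) minus the monoculture mean for the tested STAT3 targets (above the line) and acute phase genes (below it) in each library; red is higher and blue lower than monoculture. FGB and LCN2 are deep red in all 6 libraries with MSCs or their medium, CEBPB and ICAM1 are red in the same 6, and most other STAT3 targets stay pale.

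CEBPD, OSMR, CEBPB, ICAM1 and the called acute phase genes were also high in conditioned medium, where the summed stromal marker level was 23.7 to 27.5 TPM, beside 23.8 to 27.8 TPM in monoculture, and VIM was at 0.914 TPM or less. In contact culture that sum was higher, as given above, and its part in the values of that group was not tested.

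The genes whose pattern over the 9 libraries was most like that of a member were ranked by Pearson's r of log2(TPM + 1) among 6317 tested genes with a mean of at least 3. With SOCS3 these were PNRC1 (r = 0.977), CEBPD (0.963), HLA-DRA (0.959) and AC114801.3 (0.954). With OSMR they were CLIC4 (0.988), RGS16 (0.982), RPL28 (0.966) and STOM (0.965). CLIC4, for example, was at 6.64, 5.07 and 6.79 TPM in monoculture, at 18.9, 13.5 and 15.1 TPM in contact culture, and 15.01, 11.7 and 16.9 TPM in conditioned medium, and like OSMR it was lowest in replicate 2 of each condition. With STAT3 they were UGCG (0.973), MAP3K3 (0.965), CSKMT (0.953) and BTG1 (0.952). UGCG was at 209, 349 and 222 TPM in monoculture, at 235, 258 and 243 TPM in contact culture, and 331, 353 and 314 TPM in conditioned medium, and it shared the high value of monoculture replicate 2 with STAT3. Among the 10 genes themselves, r was 0.96 for SOCS3 with CEBPD, 0.95 for OSMR with CEBPD, and -0.77 for JAK1 with BCL3. The 9 points share 3 group means, so these values describe the groups as much as the libraries.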

How the data were processed

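Total RNA of 9 T47D samples was sequenced by the authors as 100 bp paired ends from stranded libraries. Trim Galore 0.5.0 and STAR 2.6.0 are named in the submitters' processing notes. For the build, the annotation, the program that made the values and the use of strand in counting, nothing is given in the sources used here. The unit of the deposited values was taken to be the natural log of TPM + 1, since on that reading each library sums to 884208 to 909618 TPM (120543 to 127236 if read as log2). From 28624 rows, 160 named by RNA families were left out (0.0295% to 0.0770% of a library's sum), and rows of 481 repeated symbols were summed. Depth per sample is not recorded in the table, which limits what can be said of counting error. Identifiers and coordinates were taken by symbol from GENCODE 29 (GRCh38; 27441 symbols, 99.3%, matched), and promoters from RefSeq. Protein sequences were not used here.

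Genes at 0.5 TPM or more in at least 3 libraries were tested as log2(TPM + 1), with a pseudocount of 1, in limma 3.58.1 (R 4.3.3; trend and robust empirical Bayes, 1 coefficient per condition, all 9 libraries), 2-sided, and called at an adjusted p under 0.05. Python 3.11.15, numpy 2.4.6, pandas 2.3.3 and matplotlib 3.10.9 were used elsewhere. Named were all 10 members, all ligands (except 1 gene that is not reported here), called genes of the other lists (up to 6 a list by smallest adjusted p), all genes of lists of 4 or fewer, VIM, FN1, COL1A1, COL1A2, COL3A1 and EPCAM, and the 4 genes most like SOCS3, STAT3 and OSMR. CISH and FGA were named for their promoter matches. Fold changes of genes that are no member were given only where the unadjusted p was under 0.05. Members and lists were chosen with earlier results of these data known. Alternatives were pseudocounts of 0.1 and 5, 2 other scalings, leaving out mitochondrial and ribosomal RNA genes, no filter or one at 1 TPM, a fit to 2 groups alone, a replicate block, no trend or robust step, the largest row of a repeated symbol, and each library left out.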

Additional observations from a re-analysis of the deposited data

How the results depend on the processing

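The number of genes called over the whole table depended on the settings, and so did the calls of the 10 genes. In contact culture against monoculture 833 genes were called, and 520 with no filter, 319 from the 2 groups alone, 509 with the replicate block and 244 to 1727 with a library left out (the highest without monoculture replicate 2, the lowest without contact culture replicate 3). In conditioned medium against monoculture 231 were called, and 125, 111, 102 and 72 to 1013 in the same order (the lowest without conditioned medium replicate 1, the highest without monoculture replicate 2). Between contact culture and conditioned medium 62 were called, and 28, 97, 22 and 15 to 208 (without the same libraries). Scaling by relative log expression turned the split of higher and lower calls, from 359 and 474 to 434 and 303 in contact culture and from 118 and 113 to 144 and 54 in conditioned medium. Upper quartile scaling gave 407 and 340, and 146 and 57. Leaving out mitochondrial and ribosomal RNA genes gave 413 and 328, and 119 and 72. Of the 10 genes, 1 to 4, 1 to 5 and 0 to 1 were called in these 3 comparisons with a library left out. In conditioned medium the count fell from 2 to 1, with the loss of OSMR, with a pseudocount of 5, with no filter, from the 2 groups alone, and without the trend and robust steps (adjusted p of OSMR up to 0.102). The replicate block left the counts at 2, 2 and 0, and same-numbered libraries deviated together with r of -0.04 to 0.11, so the numbers were not taken as pairs. In the same fit the call of STAT5A in contact culture (adjusted p = 0.0534) and those of IRF1 (adjusted p = 0.0858) and FN1 (adjusted p = 0.0508) were lost. From the 2 groups alone these calls were lost too (adjusted p up to 0.102), and that of IRF1 with no filter. Between contact culture and conditioned medium FGB was gained with a pseudocount of 5, relative log expression scaling, no mitochondrial and ribosomal RNA genes, a filter at 1 TPM and the 2 groups alone, and LCN2 with a pseudocount of 5 and the 2 groups alone. FN1 was also lost without monoculture replicate 1 or contact culture replicate 2 or 3 (adjusted p up to 0.0945).

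Differences that missed the threshold changed sign for several of the 10 genes. STAT3 in contact culture against monoculture was 0.065 with relative log expression scaling, 0.028 with upper quartile scaling and 0.043 without mitochondrial and ribosomal RNA genes, and ranged from -0.22 to 0.21 with a library left out. LIFR in conditioned medium against monoculture was 0.013 and 0.010 with these scalings and ranged from -0.19 to 0.088. With a library left out, IL6R ranged from -0.41 to 0.030 in contact culture and from -0.29 to 0.15 in conditioned medium, and PIM1 from -0.28 to 0.014 in contact culture. Between contact culture and conditioned medium the ranges were -0.069 to 0.41 for OSMR, -0.45 to 0.0020 for LIFR, -0.32 to 0.026 for BCL3, -0.037 to 0.32 for PIM1 and -0.33 to 0.089 for CEBPD. The cause of these shifts was not tested. SOCS3, IL6R, LIFR and PIM1 lie near or under 1 TPM, where the missing read counts leave the error unknown.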

Other observations

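SERPINA3, an acute phase protease inhibitor that was singled out after its values were seen, spread widely within both cultures. It was listed at 0 in monoculture replicates 1 and 2 and at 0.384 TPM in replicate 3, at 113, 1.498 and 23.4 TPM in contact culture, and at 0.168, 29.1 and 0.826 TPM in conditioned medium. SERPINA3 was not called in any comparison.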
